A study of Mus musculus with 6 samples.

Results

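The 8 genes described here encode the mechanically gated channels Piezo1 and Piezo2, the acid-sensing channels Asic1, Asic2 and Asic3, and the pacemaker channels Hcn2, Hcn3 and Hcn4. They were taken by gene symbol from a table of 57180 mouse genes, and all 8 were found and passed the filter on low counts. RNA sequencing had been carried out on dorsal root ganglia (DRG), which hold the cell bodies of sensory neurons, from thoracic level 8 to lumbar level 2 of wild-type mice. Each of the 3 mice with renal ischemia-reperfusion (I/R) had the left renal pedicle clamped for 28 min and the right kidney removed, and each of the 3 sham mice had the same operation without the clamp. All ganglia were taken 24 h after surgery, with 1 library per mouse. The sources used here give no strain, age or sex, and the labels do not state separately that the right kidney was removed in sham mice.

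Piezo channels open when the membrane is stretched or indented. Piezo2 carries light touch and limb position sense in large sensory neurons, while Piezo1 is known mainly from endothelial cells, red blood cells and other non-neuronal cells. Acid-sensing ion channels are trimers of the epithelial sodium channel superfamily that open when extracellular pH falls. Asic3 is the member most closely tied to sensory neurons, and the 3 subunits can form mixed channels. Hcn channels open on hyperpolarization, are tuned by cAMP and carry the pacemaker current: Hcn2 in nociceptors is linked to inflammatory pain, and Hcn4 is the main pacemaker channel of the heart. In the authors' annotation all 3 Hcn members carry an ion transport domain and a cyclic nucleotide-binding domain, and all 3 Asic members an amiloride-sensitive sodium channel domain.

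The upstream sequences of 4 members are shown because Hcn2 and Hcn4 varied together across the libraries and Asic1 and Asic3 leaned in opposite directions. Each is the 250 bases before the RefSeq transcription start on the plus strand of GRCm38.p6, another assembly than the GRCm39 named in the submitters' processing notes. Capitals mark GC boxes (GGGCGG, the binding motif of Sp1-type factors, on either strand), and lines run 5′ to 3′.
Hcn2, chr10:79716384-79716633: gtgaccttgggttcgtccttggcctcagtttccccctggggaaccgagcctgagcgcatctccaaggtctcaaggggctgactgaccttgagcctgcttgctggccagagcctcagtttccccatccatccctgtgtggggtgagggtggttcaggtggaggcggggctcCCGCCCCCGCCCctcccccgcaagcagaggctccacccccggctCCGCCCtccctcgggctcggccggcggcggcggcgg
Hcn4, chr9:58822699-58822948: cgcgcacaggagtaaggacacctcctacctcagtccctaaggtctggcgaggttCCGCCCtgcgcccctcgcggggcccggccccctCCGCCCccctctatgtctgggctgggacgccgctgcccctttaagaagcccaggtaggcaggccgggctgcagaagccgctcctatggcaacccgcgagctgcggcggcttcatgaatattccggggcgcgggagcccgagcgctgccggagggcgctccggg
Asic1, chr15:99691974-99692223: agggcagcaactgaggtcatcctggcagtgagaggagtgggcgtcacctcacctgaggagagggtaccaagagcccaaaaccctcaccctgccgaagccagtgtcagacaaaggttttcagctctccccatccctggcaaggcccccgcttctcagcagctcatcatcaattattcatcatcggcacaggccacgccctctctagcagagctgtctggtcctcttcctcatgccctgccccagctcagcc
Asic3, chr5:24413201-24413450: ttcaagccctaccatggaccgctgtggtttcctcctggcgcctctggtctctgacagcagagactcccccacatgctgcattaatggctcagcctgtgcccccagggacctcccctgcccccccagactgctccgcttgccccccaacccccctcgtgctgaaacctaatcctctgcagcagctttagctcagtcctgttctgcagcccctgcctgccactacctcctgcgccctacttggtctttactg

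The Hcn2 window held 3 GC boxes, beginning 80, 74 and 36 bases before the start, and the Hcn4 window held 2, beginning 196 and 163 bases before it. A GC box was present in 32.7% of 32851 RefSeq promoter windows of the same length. Neither the Asic1 nor the Asic3 window held one, nor an AP-1 site (TGACTCA, 4.46% of windows), a cAMP response element (TGACGTCA, 1.55%) or a TATA box (TATAAA, 12.4%), each searched on both strands. RefSeq entries matched 6 of the 8 members. The Piezo1 window held 1 GC box and 1 TATA box, and the windows of 2 starts of Asic2 held none of these motifs. G and C made up 74% of the Piezo1 window, 71.2% for Hcn4, 70.4% for Hcn2, 61.6% for Asic3, 59.2% for Asic1, and 66.4% and 51.2% for the 2 starts of Asic2, and the median over all windows was 52.4%. The shares over all windows were not matched for G and C content. Asic2, with no GC box in its windows, also varied with Hcn2 (Pearson r = 0.88) and Hcn4 (0.89) across the libraries. These are matches of letters at annotated starts and were not tied to any measurement of binding, and their relation to the levels was not tested.

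None of the 8 channel genes passed the test between I/R and sham ganglia. With edgeR's quasi-likelihood test over 16346 genes, 188 genes (1.15%) had an adjusted p under 0.05, 118 higher (0.722%) and 70 lower (0.428%) in I/R, and the count among the 8 was 0. The count at an unadjusted p under 0.05 was also 0 of 8, against 10.5% of all tested genes, and DESeq2 and limma-voom likewise called 0. Without sham 3 that edgeR count was 2 of 8 (Asic1 and Hcn3), against 2200 of 16618 tested genes. Without sham 2 it was 1 (Asic3), against 1350 of 16668. Log2 fold changes (I/R over sham) ran from -0.20 for Asic1 to 0.19 for Asic3. Of the 8, 4 lay above 0 and 4 below, with a median of 0.02, beside a median of 0.00 over all tested genes. This balance depended on sham 3, without which Hcn2 and Hcn4 (-0.04 each) also lay below 0. The I/R and sham values overlapped for all 8, whereas the groups did not overlap for 17.1% of tested genes. In whole ganglia, fewer cells of a type and less RNA per cell cannot be told apart. A p that misses the threshold does not show equal levels, so the 95% interval of each difference is given below. Each of the 8 intervals lay inside a 1.5-fold change in either direction, as did 64% of the intervals of all tested genes, a count added after the values were seen. The intervals are for single genes and are not adjusted for their number. The count of 8 was 6 with the muscle marker level of each library as a covariate, where the Piezo1 and Hcn3 intervals reached beyond 1.5-fold, 5 with that level taken without Pvalb, and 5 with sham 2 alone against I/R.

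**Figure D1:**
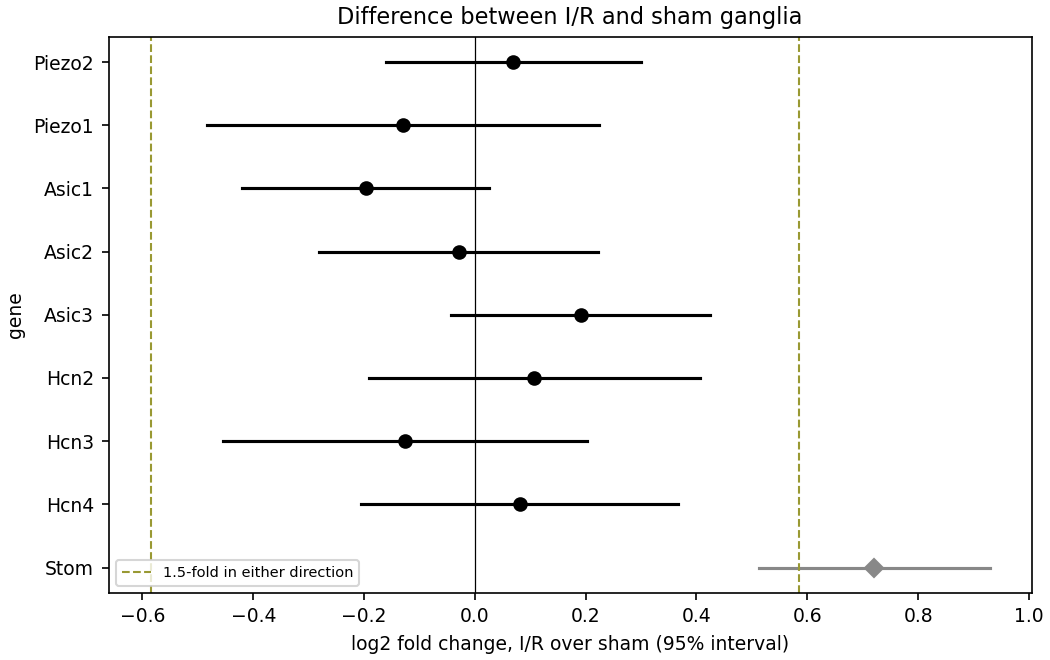
Log2 fold change of each gene in I/R over sham ganglia (x axis) with its 95% interval, 3 libraries per group. Black marks are the 8 channel genes, the grey mark is Stom, a diamond is a gene with an adjusted p under 0.05, and dashed lines stand at 1.5-fold. The intervals of the 8 channel genes all include 0 and lie inside the dashed lines, while that of Stom lies above 0.

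Levels are given as CPM, the count relative to the library size after TMM scaling. Library totals were 19092650 to 22010227 expected counts, and between 176 and 13735 counts stood behind each member's value in a library. Sham 3, the shallowest library, was the lowest of the 3 sham libraries for all 8 members. The same held for 46.6% of the 9972 genes averaging 10 CPM or more, and sham 3 was the lowest of all 6 libraries for 6 of the 8 members (26.2% of those genes). The sum of 9 skeletal muscle markers was 498, 52.9 and 300 CPM across sham 1 to 3, against 42.3 to 68.4 CPM in the I/R libraries. Pvalb, 1 of the 9, also marks large-diameter neurons, and without it the sums were 439, 12.7 and 226 CPM in sham, against 4.65 to 10 CPM in I/R. The 7 spinal cord markers summed to 47.2, 12.6 and 33.3 CPM across sham 1 to 3, against 13.8 to 17.5 CPM in I/R. Of the 4 of these that were tested, 2 lay above 0 and 2 below, and 0 were called. The part of muscle and spinal cord tissue in the channel values of each library was not measured. All 8 sensory neuron markers were measured, and their sum was 9010 to 9480 CPM (sham) against 8640 to 10300 CPM (I/R). Of those 8 markers 0 were called. With the muscle level as a covariate 0 of the 8 channel genes were called, with or without Pvalb, as in the main fit. Over all 16346 tested genes that covariate gave 77 calls, and 27 without Pvalb, against 188 in the main fit. With so few calls, and 0 of 8 from the start, these counts do not measure the part of muscle in the channel values.

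Piezo2 (ENSMUSG00000041482), the touch channel, had the most reads of the 8, and with a deposited length of 10724 bases it was also the longest. It stood at 558, 596 and 517 CPM across sham 1 to 3, against 516, 609 and 627 CPM across I/R 1 to 3. I/R 1 was as low as the lowest sham library and the other I/R libraries were higher than all 3. Its difference, I/R over sham, was 0.07 ± 0.10 on the log2 scale (SE, n = 3 per group), with a 95% interval of -0.16 to 0.30 (edgeR adjusted p = 0.86). With 1 library left out at a time, it ran from 0.02 (without I/R 3) to 0.15 (without I/R 1). Piezo2 is expressed in much of the large-diameter population but is not a marker of it alone. The 8 markers of that population, summed, were 8610 to 9120 CPM (sham) against 8200 to 9300 CPM (I/R), and 0 of the 8 were called.

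Piezo1 (ENSMUSG00000014444) stood at 12.1, 13 and 9.05 CPM across sham 1 to 3, against 9.49, 10.1 and 11.6 CPM across I/R 1 to 3. All 3 I/R values lay within the sham range. Its log2 fold change was -0.13 ± 0.16, and its interval, the widest of the 8, was -0.48 to 0.22 (adjusted p = 0.826). The value was -0.27 without sham 3, -0.02 without sham 2 and -0.07 without I/R 1. Among cells known to carry Piezo1, the 8 endothelial markers summed to 179 to 186 CPM (sham) against 179 to 193 CPM (I/R). The 6 red cell markers summed to 183 to 274 CPM (sham) against 53.7 to 88 CPM (I/R), and 5 of the 6 fell in edgeR's test. The 8 fibroblast and meningeal markers summed to 996 to 1210 CPM (sham) against 548 to 666 CPM (I/R), and 7 of the 8 fell. The 7 macrophage markers summed to 36.7 to 38.3 CPM (sham) against 46 to 47.2 CPM (I/R), and 1 of them, Cd163, rose. The part of these cell types in the Piezo1 value was not tested. Within a library Piezo1 made up 2.11% to 2.77% of the summed Piezo level per length, and Piezo2 the rest.

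Asic1 (ENSMUSG00000023017), a subunit of channels that open at modest acidity in central and peripheral neurons, had the lowest log2 fold change of the 8. It stood at 121, 119 and 102 CPM across sham 1 to 3, against 105, 99.8 and 93.5 CPM across I/R 1 to 3. Sham 3 lay between I/R 1 and I/R 2, and the other sham libraries were above all I/R libraries. On the log2 scale it differed by -0.20 ± 0.10 (interval -0.42 to 0.03, adjusted p = 0.543). It was -0.27 without sham 3 (adjusted p = 0.256) and -0.15 without sham 1 (adjusted p = 0.872).

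Asic2 (ENSMUSG00000020704), which contributes to mixed acid-sensing channels and is little opened by mild acid by itself, measured 120, 112 and 91.9 CPM across sham 1 to 3. Across I/R 1 to 3 it measured 105, 112 and 101 CPM, all inside the sham range. Its log2 fold change was -0.03 ± 0.11 (interval -0.28 to 0.22, adjusted p = 0.952), -0.13 without sham 3 and 0.05 without sham 1.

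Asic3 (ENSMUSG00000038276), an acid sensor of muscle and visceral afferents, had the highest log2 fold change of the 8. It stood at 88.3, 96.0 and 78.6 CPM across sham 1 to 3, against 92.4, 105 and 103 CPM across I/R 1 to 3. I/R 1 was below sham 2, and the other I/R libraries were above all sham libraries. The fitted difference was 0.19 ± 0.10 on the log2 scale (interval -0.04 to 0.42, adjusted p = 0.581). It was 0.26 without sham 2 (adjusted p = 0.613) and 0.12 without sham 3 (adjusted p = 0.637). It came to 0.07 once each library's muscle level was a covariate, and to 0.04 with sham 2 alone.

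Hcn2 (ENSMUSG00000020331), the pacemaker member linked to inflammatory pain, stood at 148, 145 and 104 CPM across sham 1 to 3, against 139, 150 and 139 CPM across I/R 1 to 3. Apart from sham 3 the libraries lay close together. I/R differed from sham by 0.11 ± 0.13 on the log2 scale (interval -0.19 to 0.41, adjusted p = 0.83). The difference was -0.04 without sham 3 (adjusted p = 0.881) and 0.20 without sham 1 (adjusted p = 0.857). The 8 nociceptor markers summed to 3820 to 4390 CPM (sham) against 3450 to 4060 CPM (I/R), and 0 of the 8 were called.

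Hcn3 (ENSMUSG00000028051), a channel less sensitive to cAMP than Hcn2 and Hcn4, measured 46.4, 48.2 and 32.8 CPM across sham 1 to 3. It measured 35.0, 41.1 and 40.7 CPM across I/R 1 to 3, above sham 3 and below sham 1 and sham 2. Its fitted log2 fold change was -0.13 ± 0.15 (interval -0.45 to 0.20, adjusted p = 0.818). It was -0.28 without sham 3 (adjusted p = 0.294) and -0.03 without sham 2 (adjusted p = 0.98).

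Hcn4 (ENSMUSG00000032338), the cardiac pacemaker channel, stood at 26.4, 25.2 and 19.8 CPM across sham 1 to 3, against 23.8, 27.0 and 24.7 CPM across I/R 1 to 3. Sham 3 was again the low library, and the others spanned a narrow range. On the log2 scale the difference was 0.08 ± 0.13 (interval -0.20 to 0.37, adjusted p = 0.868), with -0.04 without sham 3 (adjusted p = 0.925) and 0.16 without sham 1 (adjusted p = 0.884).

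**Figure D2:**
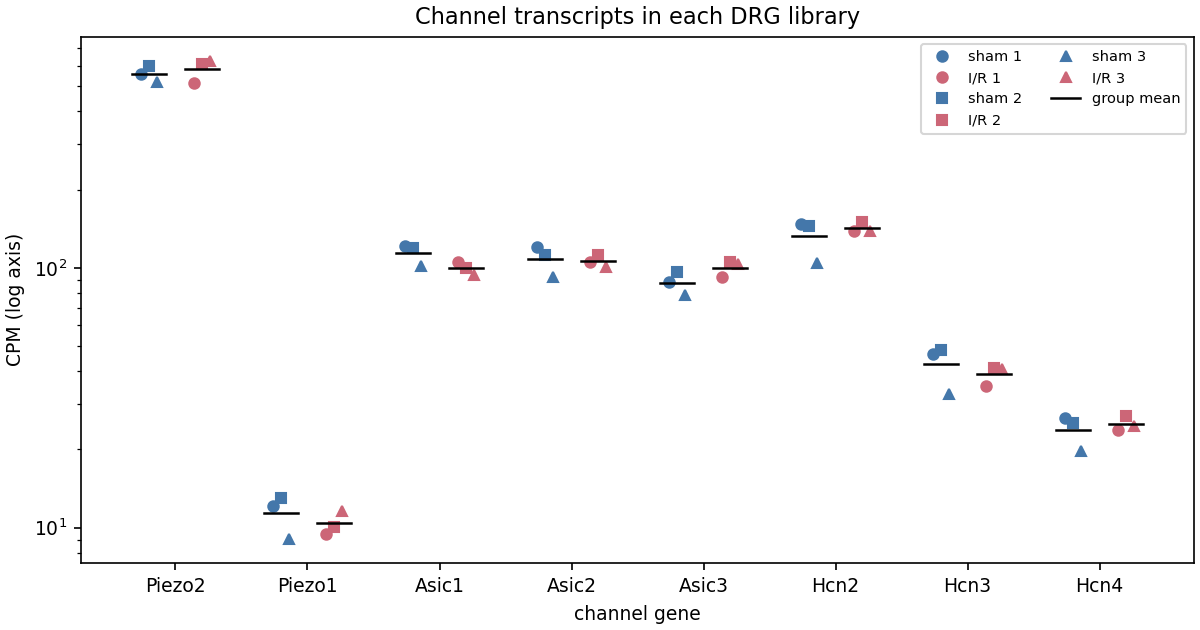
CPM of the 8 channel genes (log axis) in each of the 3 sham (blue) and 3 I/R (red) libraries, with a bar at each group mean. Sham 3 (blue triangles) is the lowest sham library for every gene, and the I/R values overlap the sham values for all 8.

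Levels of different genes were compared per length, as RPKM computed from the counts, the TMM-scaled library sizes and the deposited gene lengths. Averaged over the 6 libraries, Asic3 (58.9 RPKM, range 49.3 to 65.8), Asic1 (58.7, 51.4 to 66.4) and Piezo2 (53.2, 48.1 to 58.4) led. These 3 overlapped: Asic3 was above Asic1 in 3 of 6 libraries, and Asic1 above Piezo2 in 4 of 6. Hcn2 followed at 43.0 RPKM and stood below Piezo2 in 6 of 6 libraries. Asic2, at 31.1 RPKM, was below Hcn2 in 6 of 6 libraries although the ranges overlapped. Hcn3 came next at 10.2 RPKM, then Hcn4 at 4 and Piezo1 at 1.32 RPKM, with no overlap between these 3. Asic3 and Asic1 were each higher than 91.9% of tested genes, and Piezo1 was higher than 23.1%. The order depends on the deposited lengths, from 1593 bases for Asic3 to 10724 bases for Piezo2, and on which transcripts those lengths describe, which no source used here gives. Splice forms such as those of Asic1 and Asic2 were counted together.

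**Figure D3:**
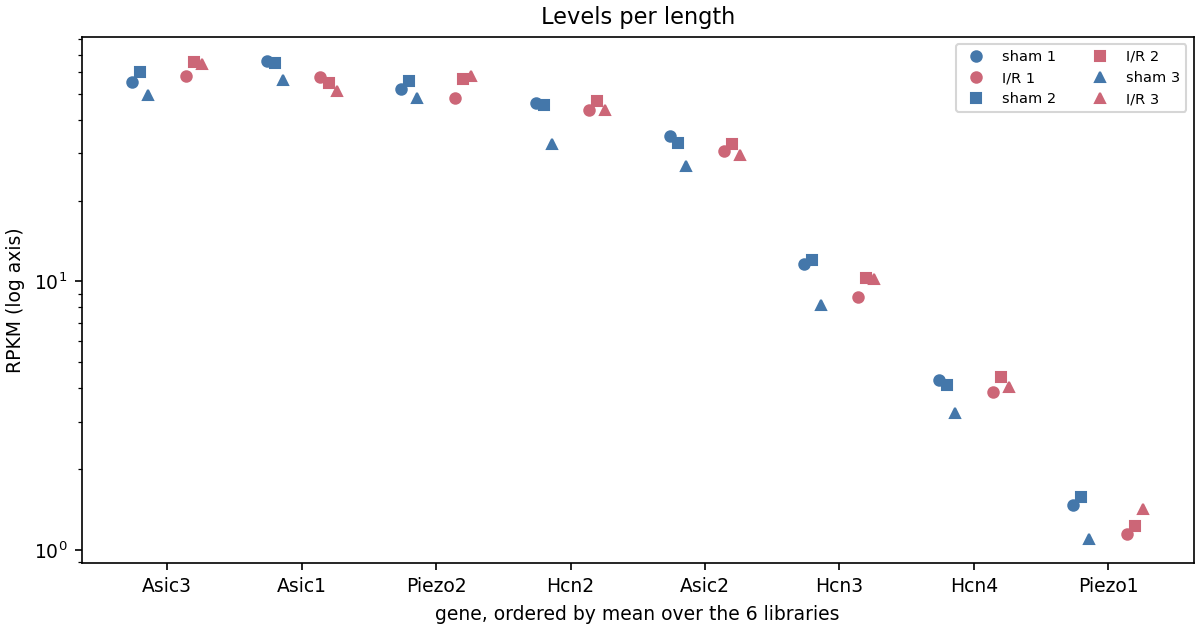
RPKM (log axis) of the 8 channel genes in each library, ordered by the mean over the 6 libraries. Asic3, Asic1 and Piezo2 overlap at the top with means of 53.2 to 58.9 RPKM, and Piezo1 is lowest at 1.32 RPKM.

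Within the acid-sensing family the share of Asic1 was lower, and that of Asic3 higher, in each I/R library than in each sham library, while neither gene passed the test singly. Asic1 made up 42.0% ± 0.712 of the summed Asic level per length in sham and 36.9% ± 2.24 in I/R (SD, n = 3), and Asic3 36.9% ± 1.40 in sham and 42.3% ± 2.40 in I/R. Asic2 made up 21.0% ± 1.06 and 20.8% ± 0.483. Asic4 had 2 to 6 counts per library and Asic5 had 0 in each of the 6, and a count of 0 allows up to 3 counts, or 0.137 to 0.154 CPM. The log2 ratio of Asic3 to Asic1 CPM, which does not depend on how libraries are scaled, was -0.45, -0.30 and -0.38 across sham 1 to 3, against -0.18, 0.07 and 0.14 across I/R 1 to 3. The groups did not overlap and differed by 0.39 (exact permutation test, two-sided, p = 0.1, the smallest that 3 against 3 allows). Over the 7 ratios given here, which were chosen after the values were seen and share genes, the adjusted p was 0.14. Groups did not overlap for 18.2% of all such ratios between pairs of genes averaging 10 CPM or more. With the muscle level as a covariate the log2 fold change was 0.071 for Asic3 and -0.205 for Asic1. The ratio was not fitted with that covariate. Sham 2, the sham library with the lowest muscle marker sum, had the sham ratio nearest to the I/R values.

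Among the 7 ratios, that of Hcn4 to Hcn2 differed least between the groups. The log2 ratio of Hcn4 to Hcn2 was -2.49, -2.53 and -2.39 across sham 1 to 3, against -2.54, -2.47 and -2.49 across I/R 1 to 3, a difference of -0.03 (exact permutation p = 0.5). Hcn3 to Hcn2 was -1.68, -1.59 and -1.66 in sham, against -1.99, -1.87 and -1.77 in I/R, with no overlap and a difference of -0.23 (exact permutation p = 0.1, adjusted p = 0.14). Of the summed level per length of Hcn2, Hcn3 and Hcn4, Hcn2 made up 74.1% ± 0.363 in sham and 76.3% ± 1.08 in I/R, Hcn3 19% ± 0.531 and 16.6% ± 1.03, and Hcn4 6.99% ± 0.348 and 7.04% ± 0.118. The other 3 ratios with no overlap were Asic2 to Asic1 (0.17), Asic3 to Asic2 (0.21) and Hcn4 to Hcn3 (0.20), each with an exact permutation p = 0.1. The ratios with no overlap share genes, so they are not separate results. Non-overlap was found for 18.2% of ratios over all gene pairs averaging 10 CPM or more. Piezo2 to Piezo1 differed by 0.18, with overlapping groups and an exact permutation p = 0.3.

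**Figure D4:**
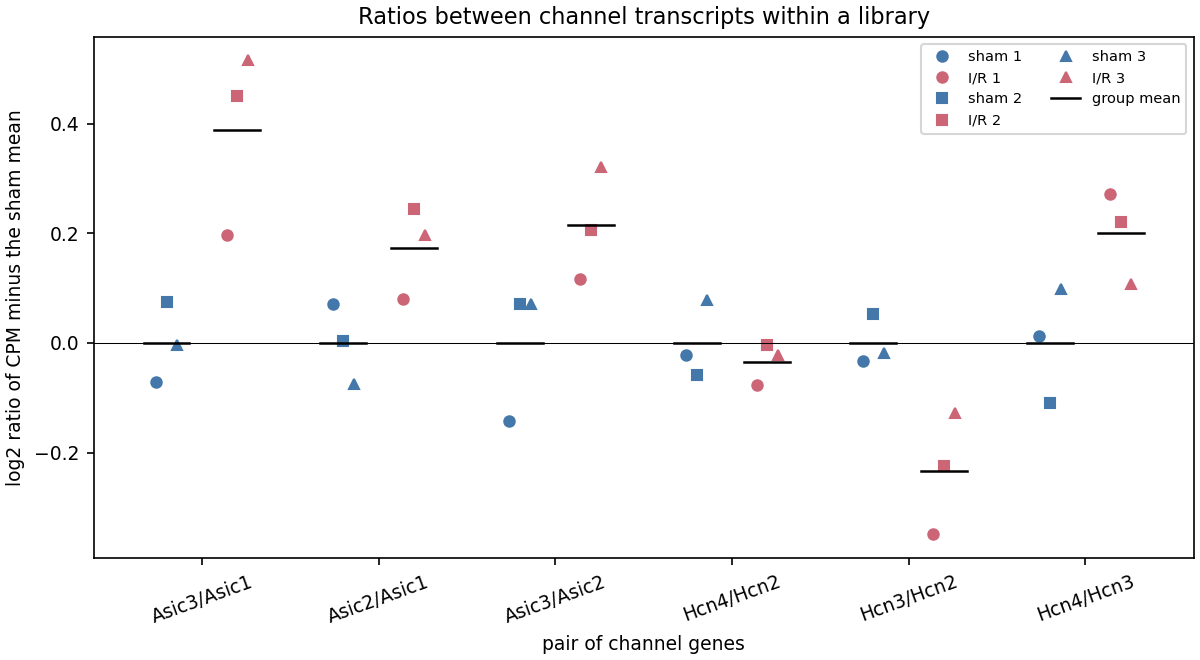
Log2 ratio of CPM between 2 channel genes within each library, minus the sham mean of that ratio, for 3 sham (blue) and 3 I/R (red) libraries with bars at the group means. The Asic3 to Asic1 ratio is 0.39 higher in I/R with no overlap (exact permutation p = 0.1, adjusted p = 0.14), and Hcn4 to Hcn2 differs by -0.03. No overlap was found for 18.2% of ratios over all gene pairs averaging 10 CPM or more. Piezo2 to Piezo1, whose groups overlap, is not drawn.

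Across the 6 libraries the members mostly varied together. Of the 28 pairs, 26 had a positive Pearson correlation of log2 CPM, with a median r of 0.64, and after each group's mean was removed the median was 0.80. Over all pairs of genes averaging 10 CPM or more the medians were 0.01 and 0.01. The highest r was 0.98, between Hcn2 and Hcn4, followed by 0.94 between Piezo1 and Hcn3 and 0.89 between Asic2 and Hcn4. The 2 negative pairs both held Asic1, with r = -0.32 against Asic3 and -0.22 against Piezo2. With group means removed these were 0.38 and, after rounding, 0, so the pair with Asic3 was not negative within the groups. The sign of the rounded value for the pair with Piezo2 is not given. These values describe 6 points that share library depth and tissue make-up, and the low values in sham 3 enter every pair. The 3 genes most like Asic3 across the 6 libraries, among 9722 named genes averaging 10 CPM or more, were Flot2 (r = 0.994), Arid5a (0.992) and Apba2 (0.991). Those most like Asic1 were Lasp1 (0.986), Dusp15 (0.984) and Sipa1 (0.980). Picking the highest of 9722 values over 6 libraries yields a high r by itself, so these names are a description only.

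Among other genes of these pathways, Stom rose. Stomatin is a membrane protein that binds acid-sensing channels and alters their gating, and it is also abundant in red blood cells. It stood at 27.4, 27.6 and 27.6 CPM across sham 1 to 3, against 42.6, 46.1 and 47.6 CPM across I/R 1 to 3, with every I/R library above every sham library, as for 9.23% of tested genes. The difference came to 0.72 ± 0.09 on the log2 scale (edgeR adjusted p = 0.00466). Of the marker lists given above, 5 of 6 red cell and 7 of 8 fibroblast and meningeal markers fell, 1 of 7 macrophage markers rose, and 0 of 8 endothelial markers were called. The part of these cells in the Stom difference was not tested. The call was lost with the muscle level as a covariate (0.70, adjusted p = 0.137), with that level taken without Pvalb (0.74, adjusted p = 0.346) and with sham 2 alone against I/R (0.70, adjusted p = 0.223). Stom was 1 of 11 tested genes among 17 other acid sensors and Asic partners, with 1 higher, 0 lower and a median of 0.09. Over all tested genes 0.722% were called higher and 0.428% lower. In that list Kcnk9, an acid-inhibited background potassium channel, differed by -0.41 on the log2 scale (adjusted p = 0.553), Pacc1, the proton-activated chloride channel, 0.18 (0.708), Otop1, a proton channel, -0.24 (0.712) and Pick1, a scaffold protein of Asic subunits, -0.11 (0.746).

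Of 21 Hcn partners, adenylyl cyclases and related cyclic nucleotide-gated channels, 15 were tested, with a median log2 fold change of 0.01. Calls numbered 0 with edgeR, with DESeq2 and with limma-voom, and edgeR called 1.15% of all tested genes. Its unadjusted p was under 0.05 for 1 of the 15, Irag2, against 10.5% of all tested genes. Irag2, whose protein can lower the cAMP response of Hcn4, measured 1.29 ± 0.272 CPM (sham) against 0.715 ± 0.0529 CPM (I/R) (log2 fold change -0.84, adjusted p = 0.307), with every I/R library below every sham library, as for 7.83% of tested genes. Adcy6, an adenylyl cyclase, differed by a log2 value of -0.13 (adjusted p = 0.718), Cngb1, a cyclic nucleotide-gated channel subunit, 0.56 (adjusted p = 0.71), and Flna, an actin-binding protein, -0.14 (adjusted p = 0.756). Irag2 rested on only 14 to 29 counts per library, and Cngb1 on 4 to 14, with an interval of -0.41 to 1.53.

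Of 18 Piezo partners and other mechanosensitive proteins, 14 were tested, with a median log2 fold change of -0.04. Calls again numbered 0 with each of the 3 tools, beside edgeR's 1.15% of all tested genes. At an unadjusted p under 0.05 edgeR counted 1 of the 14, Tmem63a, against 10.5% of all tested genes. Tmem63a, a stretch-activated channel, measured 38.7 ± 4.61 CPM (sham) against 30.6 ± 3.63 CPM (I/R) (log2 fold change -0.34, adjusted p = 0.365). Its relative Tmem63c differed by 0.17 on the log2 scale (adjusted p = 0.728), Tmem87a, a protein linked to mechanical currents in adherent cells, -0.16 (0.667), and Kcnk10, a stretch-sensitive potassium channel, 0.19 (0.634).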

How the data were processed

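The authors deposited 1 table with an estimated count per gene and library, not scaled to library size; 10.7% to 11.5% of its values were not whole, so the values were treated as estimated (expected) counts and rounded. Tools named by the submitters' processing notes are HISAT2, fastp and StringTie, with the build GRCm39, and per the labels' protocols TRIzol RNA and a stranded Illumina mRNA kit were used. No source used here gives the counting program or its strand setting. The test was edgeR's quasi-likelihood test (edgeR 4.0.16, R 4.3.3; TMM, the package's low-count filter, group as the only term) with Benjamini-Hochberg adjustment over 16346 genes. Standard errors and 95% intervals were derived from the fold change and F statistic. The biological coefficient of variation was 13.2%. On simulated counts of 16153 genes it called 36% of genes given a 1.5-fold change, 78% at 2-fold and 100% at 3-fold. Pairs of libraries within a group differed by more than sampling noise (chi-square per degree of freedom 4.15 to 30.9). Correlations used log2 CPM with 0.5 CPM added. Counting limits cover counting error only.

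The 8 members, the partner lists and the tests were chosen with earlier results of these data known. Named genes were the 8 members, every called gene of a partner list and up to 4 more with the smallest p, and the 3 genes most correlated with the members of highest and lowest fold change, leaving out predicted genes. One gene of the partner lists, and the shares and ratios that need it, are not reported here. Asic4 and Asic5 were named after their values were seen. Alternatives were RLE and upper-quartile scaling, DESeq2 1.42.0, limma-voom (limma 3.58.1), robust dispersion, no filter, a CPM of at least 1 in 3 libraries, unrounded counts, the replicate number as a block, the skeletal muscle level as a covariate (and, chosen after seeing the data, that level without Pvalb), each library left out, and sham 2 alone against I/R.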

Additional observations from a re-analysis of the deposited data

How the results depend on the processing

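Under all 18 alternatives run, 0 of the 8 channel genes were called. Their log2 fold changes stayed between -0.35 and 0.26, and the signs of Piezo2, Asic2, Hcn2 and Hcn4, all near 0, changed under 2 or 3 of them. The count of partner genes called, 1 (Stom), was 0 with the replicate block (adjusted p = 0.0514), 0 with the muscle covariate, with or without Pvalb, and 0 with sham 2 alone, where the lone sham library is assumed to vary like the I/R libraries. Over all tested genes 188 were called, and 312 with DESeq2, 494 with no filter on low counts, 63 with the replicate block, 77 with the muscle covariate, 27 with that covariate without Pvalb and 32 with sham 2 alone. Leaving out 1 library gave 87 to 181 (93 without sham 1, 87 without I/R 2, 98 without I/R 3). The count of members with an interval inside 1.5-fold was 5 with sham 2 alone, 5 with the covariate without Pvalb (Piezo1, Asic1 and Hcn3 beyond) and 7 without I/R 2 (Hcn3 beyond) or I/R 3 (Piezo1 beyond). Same-numbered sham and I/R libraries had correlations of -0.17, 0.23 and -0.18 in their deviations from the group means, so the numbers were not taken to pair the mice. RPKM with unscaled library totals moved each member by less than its SD. With 3 mice per group, a change of 1.5-fold was often not called in simulated counts (36% were). That share was not tested at the levels and spread of the 8 channel genes.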
